A study of Mus musculus with 9 samples.

Results

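Cadherins and protocadherins were measured in 3 regions of the mouse forebrain, on the probe sets whose single gene symbol lay in the ranges Cdh1 to Cdh24 or Pcdh1 to Pcdh20 or named a clustered protocadherin (Pcdha, Pcdhb or Pcdhg). Cdh26 and the Cdhr genes lie outside these ranges. This choice used gene names and no measured value, though it was made with earlier results of these data known. It gave 100 of the 45037 probe sets, for 55 genes. One region, the BNST or bed nucleus of the stria terminalis, belongs to the extended amygdala. The others, the NAc (nucleus accumbens) and the dStr (dorsal striatum), are the ventral and dorsal divisions of the striatum. Biological replicates 1 to 3 were labelled in each. Each was a tissue punch from 300 µm coronal slices of mouse brain, with 10 ng of total RNA labelled over 2 amplification cycles and read on 1 Affymetrix Mouse430_2 array. The labels name no treatment other than brief isoflurane anaesthesia, and the sources used here do not give the strain, sex, age or pooling of animals.

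Cadherins are adhesion molecules that join neighbouring cells through calcium-dependent extracellular repeats. Classical cadherins, of type I and type II, bind catenins and through them the actin cytoskeleton. In the developing forebrain, neurons of different divisions carry different sets of type II cadherins, and these molecules also sit at synapses. Non-clustered protocadherins of the delta-1 and delta-2 groups are scattered in the genome and differ in their cytoplasmic motifs. Clustered protocadherins lie in a row of alpha, beta and gamma genes, of which single neurons use varying combinations. A beta protocadherin gene is a single exon with a promoter of its own.

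Of the 55 genes, 41 had a probe set bright enough to be tested, which meant a value above that array's 40th percentile on 3 or more of the 9 arrays. These were 4 of 5 type I cadherins, 9 of 11 type II cadherins, 3 of 4 other cadherins, 10 of 12 non-clustered protocadherins, 14 of 22 beta protocadherins and the gamma protocadherin gene Pcdhgc4. The 14 genes below that level were Cdh1, Cdh5, Cdh17, Cdh18, Pcdh1, Pcdh12, Pcdhb1, Pcdhb2, Pcdhb4, Pcdhb6, Pcdhb8, Pcdhb14, Pcdhb18 and Pcdhb22. Their highest value on any array was 82.1, where arrays had medians of 93.9 to 102 and a common floor of 15. A further 6 probe sets named for several protocadherins together were left out by the rule, so that no alpha protocadherin was covered.

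Array values were probe-set intensities on a linear scale. They were tested as log2(value + 16) with limma over all 14208 genes, each gene being represented by its brightest kept probe set, and a gene passed at a Benjamini-Hochberg adjusted p under 0.05. Folds given here are on that scale and are smaller than plain intensity ratios for dim genes. Levels were not compared between genes, since probe sets differ in brightness for the same amount of RNA. The p-values measure the spread between these samples, which may include technical spread where samples share an animal.

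Lists of region markers, written with earlier results of these data known, were read as a limited check of the labels. Some arrays correlated more with an array of another region than with one of their own. All 10 tested medium spiny neuron markers were lower in BNST than in dStr and 7 lower than in NAc, and of 10 BNST markers 9 were higher than in dStr, 7 higher than in NAc and 1 lower than in NAc. Between NAc and dStr 2 medium spiny neuron markers were lower and 3 BNST markers higher in NAc. BNST 1 correlated with NAc 3 at r = 0.965 across genes, above its r of 0.934 and 0.948 with BNST 2 and BNST 3. NAc 1 correlated at 0.938 and 0.909 with NAc 2 and NAc 3. NAc 2 correlated at 0.951, 0.958 and 0.946 with dStr 1, dStr 2 and dStr 3, each above its 0.938 with NAc 1. The NAc arrays as a group did not separate from the other regions by this measure. Counts are also given without BNST 1 and NAc 1. These 2 arrays were picked from these same values, and leaving out arrays that differ from their group favours further calls. Passes gained without them are therefore descriptive. Because the tissue was bulk, fewer cells of a type and less RNA per cell cannot be told apart.

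Most of the region differences in this family lay between BNST and dStr. The F test over the 3 regions called 11 of the 41 members, where it called 10.3% of all genes. Between BNST and dStr, 12 members passed, 5 higher and 7 lower in BNST, against 14.3% of all genes (4.94% higher and 9.33% lower). Between NAc and dStr 5 members passed, against 2.05% of all genes, with 3 higher in NAc (0.950%) and 2 lower (1.10%). Between BNST and NAc 2 passed, against 2.24%, with 1 higher in BNST (0.760%) and 1 lower (1.48%). The arrays of BNST and dStr did not overlap for 26 members, where this held for 36.4% of all genes. For NAc and dStr it held for 13 members against 19.1%, and for BNST and NAc for 12 against 14.6%. Tested singly, 19 of the 64 kept probe sets of the family passed between BNST and dStr (13.6% of all kept probe sets), 7 between NAc and dStr (1.68%) and 2 between BNST and NAc (1.81%). These shares describe the members, and the difference from other genes was not tested.

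Without BNST 1 and NAc 1 the F test called 19 members, and the comparisons of BNST with dStr, NAc with dStr and BNST with NAc called 16, 9 and 7. Calls rose over all genes too, to 25.9% by the F test and to 29.2%, 4.98% and 15.5% in those comparisons. All members called with 9 arrays were among them in each comparison. Single arrays also moved these counts. All 3 regions share 1 estimate of the spread, so a left-out array of any region lowers the degrees of freedom of every comparison. The F test called 7 members without BNST 3, 7 without dStr 1 and 6 without dStr 2, and BNST against dStr gave 7 without BNST 3. Between NAc and dStr the 5 calls became 3 with BNST 2 left out, 2 with BNST 3, 2 with NAc 2, 1 with NAc 3, 0 with dStr 1, 1 with dStr 2 and 0 with dStr 3. Between BNST and NAc the 2 calls became 5 without BNST 1, 1 without BNST 3 and 6 without NAc 3.

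**Figure D1:**
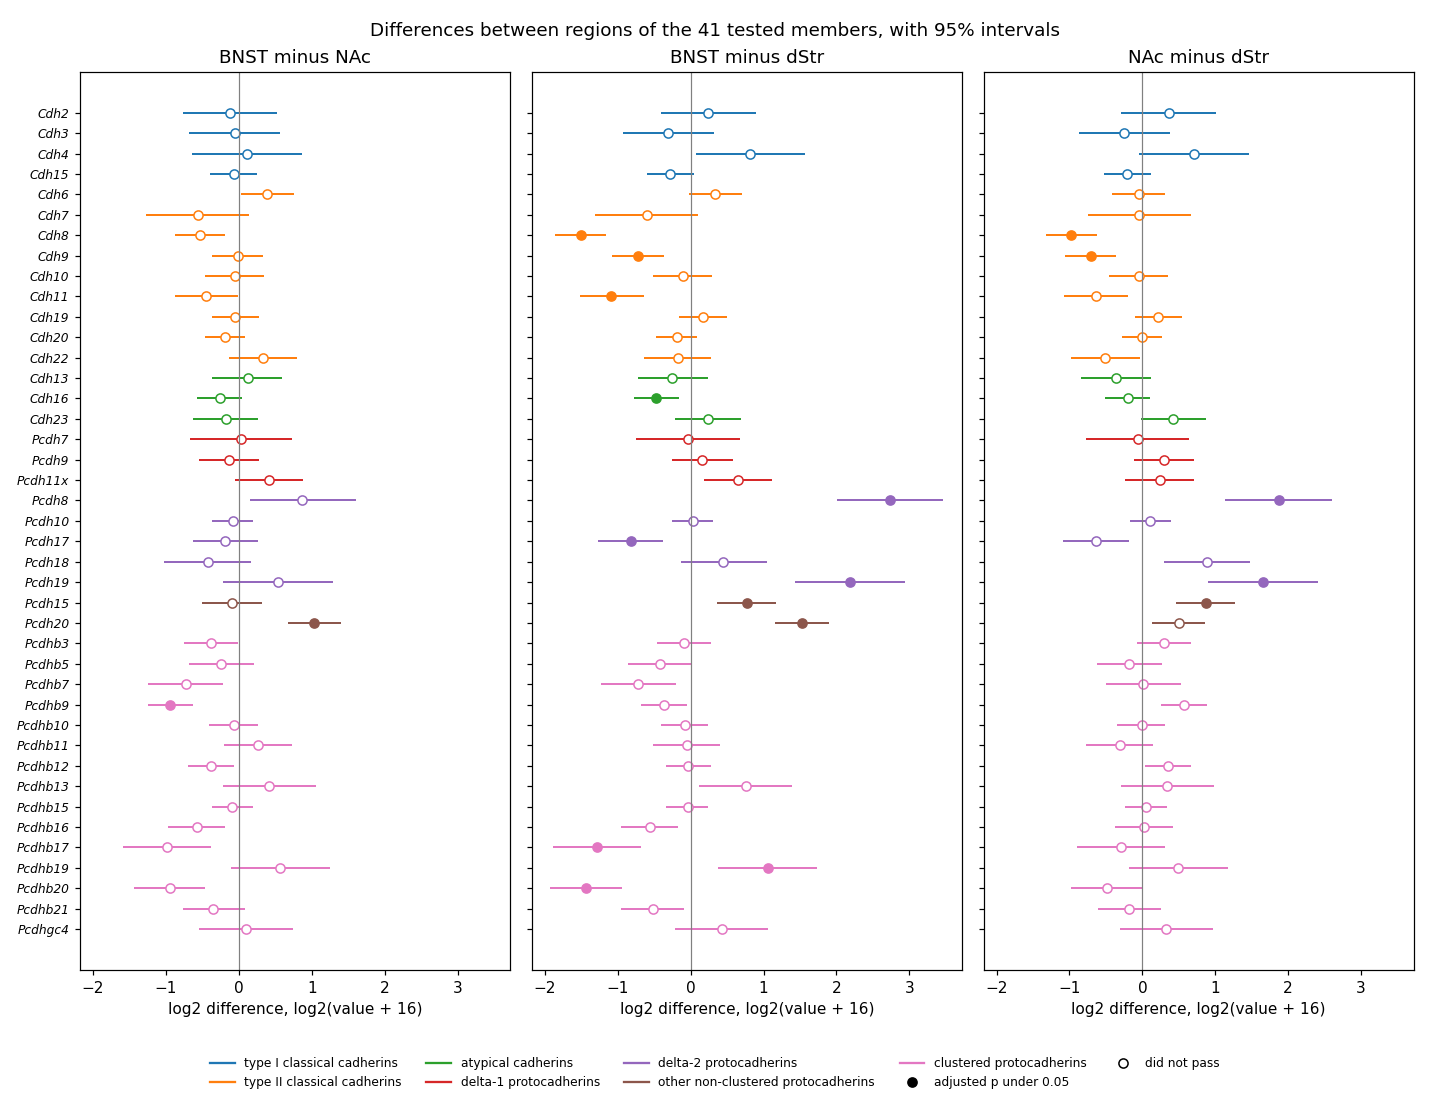
Log2 differences of the 41 tested members in the 3 comparisons, with 95% intervals from the limma fit on 9 arrays. Colours give the subfamily and filled points passed at an adjusted p under 0.05. Cdh8, Cdh9 and Cdh11 lie left of 0 and Pcdh8, Pcdh19 and Pcdh20 right of 0 in the BNST minus dStr panel, where 12 points are filled.

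The type II cadherins that differed were all highest in dStr. Of the 9 tested, 3 were lower in BNST than in dStr (Cdh8, Cdh9 and Cdh11), 2 were lower in NAc than in dStr (Cdh8 and Cdh9), and none was higher in either. None passed between BNST and NAc. Over all genes 9.33% were lower in BNST than in dStr and 1.10% lower in NAc than in dStr. The highest mean was that of dStr for 7 of the 9, and for 44.5% of all genes. The differences from these shares were not tested. The median log2 difference of the 9 was -0.19 between BNST and dStr, beside -0.06 over all genes. With quantile normalisation it was -0.07, beside 0.06.

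Cdh8 had the clearest steps among them. It read 335, 239 and 234 on BNST arrays 1 to 3, 388, 381 and 412 on the NAc arrays, and 830, 736 and 805 on the dStr arrays. The 3 regions did not overlap, with BNST lowest and dStr highest. The mean of Cdh8 was 269 ± 57.1 in BNST (SD, n = 3 arrays) against 790 ± 48.4 in dStr. The log2 difference was -1.51 (SE 0.15, limma adjusted p = 0.000165). It averaged 394 ± 16 in NAc, which was 1.97-fold below dStr (adjusted p = 0.00859; 0.0511 without dStr 1 and 0.054 without dStr 3). BNST lay 0.54 below NAc on the log2 scale, which did not pass (adjusted p = 0.11). That difference passed without BNST 1 (-0.70, adjusted p = 0.0176) and without BNST 1 and NAc 1 (-0.71, 0.0097). A second kept probe set of Cdh8 read 161, 93.8 and 108 in BNST, 140, 234 and 171 in NAc, and 433, 369 and 517 in dStr, and passed in the same 2 comparisons.

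Cdh11, which is known from mesenchymal cells as well as from neurons, is the next gene to Cdh8 on chromosome 8 in the RefSeq annotation of GRCm38.p6. Its intensities were 141, 105 and 126 in BNST, 151, 243 and 143 in NAc, and 285, 289 and 264 in dStr. All dStr arrays were above all others, and NAc 2 was the only array of the remaining 6 above 200. The BNST mean of 124 ± 18.2 was 2.12-fold below the dStr mean of 280 ± 13.3 (n = 3 each, limma adjusted p = 0.00404). NAc lay 0.64 below dStr on the log2 scale without passing (adjusted p = 0.152), and passed without NAc 2 (-0.86, adjusted p = 0.0342). Its other kept probe set gave -1.20 between BNST and dStr (adjusted p = 0.00367 over all kept probe sets).

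Cdh9 is a type II cadherin known from synapse formation in the hippocampus. It read 167, 123 and 131 in BNST, 147, 151 and 126 in NAc, and 218, 278 and 230 in dStr. BNST and NAc overlapped fully, and dStr was above both. The means were 141 ± 23.4, 141 ± 13.3 and 242 ± 31.7 (SD, n = 3 arrays each), so that dStr exceeded BNST by 1.65-fold (limma adjusted p = 0.0102; 0.0521 without BNST 3) and NAc by 1.63-fold (adjusted p = 0.0438). The log2 difference between NAc and dStr was -0.71, and -0.78 to -0.61 with 1 of 8 arrays left out. The call between NAc and dStr ended when any of these 8 arrays was left out. With BNST 2 or BNST 3 removed its adjusted p was 0.0524 or 0.0833, with NAc 1, NAc 2 or NAc 3 removed 0.0521, 0.0877 or 0.128, and with dStr 1, dStr 2 or dStr 3 removed 0.105, 0.155 or 0.145. It also ended with no filter (0.0583), over all kept probe sets (0.0531) and on the arrays of the pair alone (0.0593).

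The other type II cadherins did not pass. Cdh6 and Cdh10 flank Cdh9 on chromosome 15 with no protein-coding gene between them, and neither followed it. Cdh6 read 178, 166 and 167 in BNST, 112, 142 and 125 in NAc and 102, 152 and 143 in dStr, with BNST above both other regions on every array (log2 differences of 0.39 and 0.34, limma adjusted p = 0.314 and 0.182). Cdh10 differed by -0.11 between BNST and dStr, with a 95% interval from -0.50 to 0.28. Cdh7, the neighbour of Cdh19 on chromosome 1, varied most within NAc, at 178 and 164 on NAc 1 and NAc 2 and 57 on NAc 3, against 76.6, 78 and 75.1 in BNST. Its second kept probe set read 309, 194 and 89.2 in NAc and 74.3, 39 and 43.1 in BNST, a log2 difference of -1.54 that did not pass (adjusted p = 0.0638 over all kept probe sets). Between BNST and dStr Cdh7 differed by -0.60 (adjusted p = 0.236), which passed on the arrays of the pair alone (0.0194). Cdh19, Cdh20 and Cdh22 had differences between -0.51 and 0.33 in the 3 comparisons, none of which passed.

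Type I and atypical cadherins showed few differences. No type I gene passed between any regions. Cdh4, known as R-cadherin, read 292, 151 and 134 in BNST, 101, 174 and 262 in NAc and 110, 75.3 and 106 in dStr. Its BNST arrays were above its dStr arrays, and the difference of 0.82 did not pass (limma adjusted p = 0.136). A second probe set of Cdh4, at 223, 165 and 157 in BNST and 126, 57.9 and 77.6 in dStr, gave 0.98 and passed among all kept probe sets (adjusted p = 0.0251). Without BNST 1 and NAc 1, Cdh4 passed between NAc and dStr (1.04, adjusted p = 0.0118). A further probe set of Cdh4 stood at the floor on all 9 arrays. Cdh3, or P-cadherin, and Cdh15, or M-cadherin, read 189 to 364 and 84.8 to 126 over the 9 arrays, with BNST minus dStr of -0.31 and -0.28 (adjusted p = 0.494 and 0.214). Cdh2, or N-cadherin, ran from 281 to 578 over the 9 arrays on the probe set that stands for it. Its regions overlapped there (BNST minus dStr 0.24, 95% interval -0.40 to 0.88). Its second kept probe set read 461, 324 and 337 in BNST and 256, 235 and 263 in dStr, without overlap. That difference of 0.53 did not pass (adjusted p = 0.142 over all kept probe sets). On the first probe set Cdh2 passed between BNST and NAc without BNST 1 and NAc 1 (-0.68, adjusted p = 0.0354, against -0.12 with 9 arrays).

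Of the atypical cadherins, Cdh16 passed between BNST and dStr, but not in the F test over the 3 regions (limma adjusted p = 0.113). It is known as the kidney-specific cadherin. It read 75.7, 69.7 and 68.1 in BNST, 97.6, 78.7 and 89.9 in NAc and 91.3, 106 and 118 in dStr. BNST lay below both other regions on all arrays, while NAc and dStr overlapped. The BNST mean of 71.2 ± 4.01 was 1.38-fold below the dStr mean of 105 ± 13.1 (n = 3 each, limma adjusted p = 0.0422). The call did not hold with quantile normalisation (0.0627) or median centring (0.0784) or a pseudocount of 64 (0.0628), nor without BNST 2 (0.123), BNST 3 (0.147), NAc 3 (0.0503), dStr 1 (0.0535), dStr 2 (0.103) or dStr 3 (0.16). Cdh13, a cadherin anchored by a lipid without a cytoplasmic tail, and Cdh23, a component of hair cell tip links, did not pass in any comparison.

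Of the non-clustered protocadherins that passed, most were higher in BNST or NAc than in dStr. Of the 10 tested, 4 were higher in BNST than in dStr (Pcdh8, Pcdh15, Pcdh19 and Pcdh20) and Pcdh17 was lower. Between NAc and dStr 3 were higher (Pcdh8, Pcdh15 and Pcdh19), and between BNST and NAc Pcdh20 was higher. Over all genes 4.94% were higher and 9.33% lower in BNST than in dStr. Shares of 0.950% were higher in NAc than in dStr and 0.760% higher in BNST than in NAc. The differences from these shares were not tested. The comparisons of BNST and of NAc with dStr share the dStr arrays. The median log2 difference of the 10 between BNST and dStr was 0.55, beside -0.06 over all genes.

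Pcdh8, the gene of an activity-regulated delta-2 protocadherin also called arcadlin, had the largest difference of all members. It read 1672, 1412 and 1737 in BNST, 443, 1204 and 1212 in NAc, and 247, 230 and 204 in dStr. The 3 regions did not overlap, and NAc 1 lay nearer to dStr than to the other NAc arrays. Its mean was 1607 ± 172 (SD, n = 3 arrays) in BNST, 953 ± 442 in NAc and 227 ± 22.0 in dStr. BNST was 6.68-fold above dStr (log2 difference 2.74, SE 0.32, limma adjusted p = 0.000417) and NAc 3.64-fold above dStr (adjusted p = 0.0147). The NAc call ended without NAc 2 (0.0596), NAc 3 (0.0545), dStr 1 (0.0607), dStr 2 (0.0659) or dStr 3 (0.0823). BNST and NAc differed by 0.87, which did not pass (adjusted p = 0.253), and by 0.40 without NAc 1 and 0.37 without BNST 1 and NAc 1. The probe set that stands for Pcdh8 has a suffix that marks probes shared with other transcripts. A second one without that suffix read 950, 777 and 1017 in BNST, 280, 645 and 674 in NAc and 126, 145 and 114 in dStr, with the same 2 calls.

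Pcdh19, an X-linked delta-2 protocadherin gene that is mutated in a form of epilepsy, came next. It read 833, 409 and 459 in BNST, 211, 510 and 454 in NAc and 115, 119 and 87.3 in dStr. All arrays of BNST and NAc were above all arrays of dStr, while BNST and NAc overlapped, with BNST 1 highest and NAc 1 lowest of those 6. BNST averaged 567 ± 232 and dStr 107 ± 17.2 (SD, n = 3 arrays), a 4.55-fold difference (limma adjusted p = 0.00182). The NAc mean of 392 ± 159 was 3.14-fold above dStr (adjusted p = 0.0322). That call ended without BNST 3 (0.0588), NAc 2 (0.109), NAc 3 (0.105), dStr 1 (0.12), dStr 2 (0.0966) or dStr 3 (0.155), and with no filter (0.0756). Its 3 kept probe sets all passed between BNST and dStr, with differences from 1.23 to 2.40, and 2 of the 3 passed between NAc and dStr. On the probe set that stands for Pcdh19, BNST minus NAc was 0.54 and did not pass (adjusted p = 0.598). It was -0.15 there without BNST 1 and NAc 1. Another kept probe set read 592, 491 and 515 in BNST and 240, 403 and 317 in NAc, without overlap. Its difference of 0.73 did not pass (adjusted p = 0.107 over all kept probe sets). The remaining one gave 0.45, with overlap (adjusted p = 0.3).

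Pcdh20 had its step between BNST and both striatal regions. It read 198, 226 and 229 in BNST, 79.2, 106 and 111 in NAc and 56.7, 80.1 and 59.0 in dStr. Every BNST array was at least as high as 198, and no striatal array passed 111. BNST, at 217 ± 17.1 (SD, n = 3 arrays), was 2.05-fold above NAc at 98.6 ± 17.0 (limma adjusted p = 0.00984; 0.0586 without BNST 3) and 2.89-fold above dStr at 65.3 ± 12.9 (adjusted p = 0.000227). NAc and dStr differed by 0.50, which did not pass (adjusted p = 0.188), and by 0.62 without BNST 1 and NAc 1, which passed (adjusted p = 0.0435).

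Pcdh17, a delta-2 protocadherin known from synapses of corticostriatal circuits, ran against Pcdh8 and Pcdh19 of the same group. It read 884, 547 and 628 in BNST, 848, 698 and 766 in NAc and 1386, 1275 and 981 in dStr. The dStr arrays were above all others, and BNST and NAc overlapped. The BNST mean of 686 ± 176 was 1.77-fold below the dStr mean of 1214 ± 209 (n = 3 each, limma adjusted p = 0.0189; 0.0804 with BNST 2 left out, 0.0814 with BNST 3, 0.086 with dStr 1 and 0.0659 with dStr 2). NAc was 0.63 below dStr on the log2 scale, which did not pass (adjusted p = 0.165) except without BNST 1 and NAc 1 (-0.70, 0.0383). Its other kept probe set gave -0.94 between BNST and dStr and passed too (adjusted p = 0.0193 over all kept probe sets).

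Pcdh15, which with Cdh23 forms the tip links of hair cells, read 111, 105 and 109 in BNST, 89.2, 149 and 119 in NAc and 46.0, 58.7 and 67.4 in dStr. The dStr arrays were below all others. BNST was 1.7-fold above dStr (108 ± 2.79 against 57.4 ± 10.7, SD, n = 3 arrays, limma adjusted p = 0.0162; 0.0622 without BNST 3 and 0.0769 without dStr 1). NAc was 1.83-fold above dStr (adjusted p = 0.034). The latter ended without BNST 2 (0.0528), BNST 3 (0.0707), NAc 2 (0.103), NAc 3 (0.0945), dStr 1 (0.175), dStr 2 (0.107) or dStr 3 (0.0758), with no filter (0.0577), with a pseudocount of 64 (0.0539) and on the arrays of the pair alone (0.0776). The other kept probe set of Pcdh15 did not follow, at 57.8, 119 and 127 in BNST and 114, 120 and 63.3 in dStr, a log2 difference of 0.01. With the mean of both probe sets the adjusted p was 0.219 for BNST and 0.632 for NAc against dStr.

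**Figure D2:**
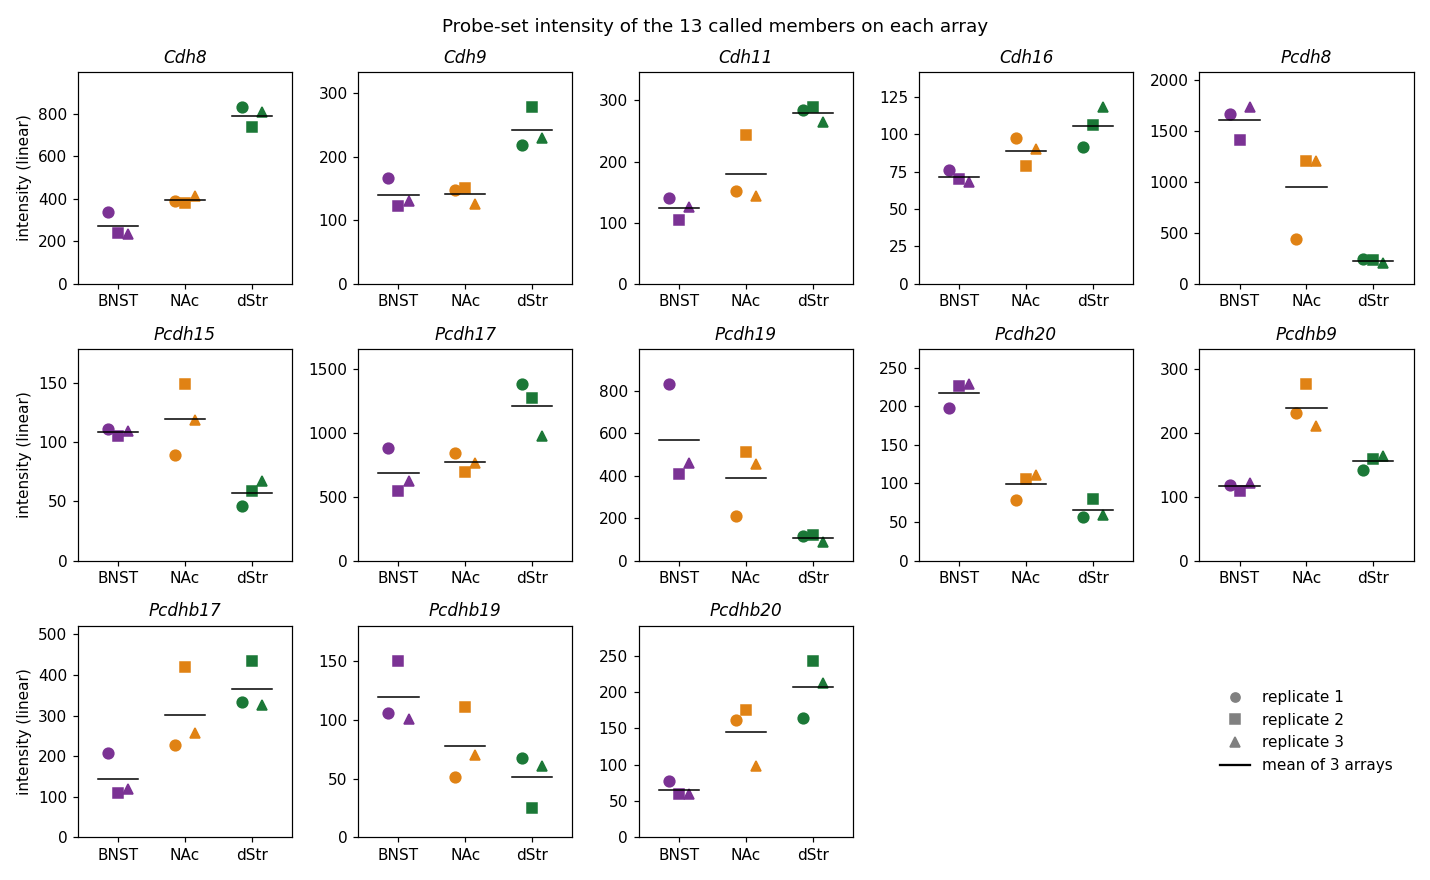
Intensity of the 13 members that passed in at least 1 comparison, on a linear axis from 0, with a point for each array, its shape for the replicate number and a bar for the mean of 3 arrays. Pcdh8 falls from 1607 in BNST to 227 in dStr, and Cdh8 climbs from 269 to 790. NAc 1 is the lowest NAc array for Pcdh8 (443) and Pcdh19 (211).

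Among the remaining non-clustered protocadherins none passed. Pcdh11x read 556, 405 and 413 in BNST and 267, 254 and 335 in dStr, without overlap, and its difference of 0.65 missed the threshold (limma adjusted p = 0.0607). It passed with quantile normalisation (0.83, adjusted p = 0.00664), with median centring (0.71, 0.0332), on the arrays of the pair alone (0.65, 0.0289) and without BNST 1 and NAc 1 (0.51, 0.0272). Its second kept probe set differed by 0.03. Pcdh18 was highest on NAc 2, at 331, and ran from 89.3 to 193 elsewhere. All its NAc arrays were above all its dStr arrays (0.88, adjusted p = 0.146), and it passed there without BNST 1 and NAc 1 (1.15, adjusted p = 0.0137). Pcdh9 was bright in all regions, at 1168 to 1876, and its 95% intervals for the 3 differences lay between -0.54 and 0.70. Pcdh10, or OL-protocadherin, differed by at most 0.11 on the probe set that stands for it. On 2 of its other 4 kept probe sets it was lower in BNST than in NAc by 0.88 and 0.94 (adjusted p = 0.179 and 0.122 over all kept probe sets), so its probe sets did not give 1 picture. Pcdh7 gave differences within 0.06 of 0 on the probe set that stands for it, with intervals reaching -0.76 and 0.72. Its second kept probe set gave 0.54 between BNST and dStr, which did not pass (adjusted p = 0.17 over all kept probe sets).

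**Figure D3:**
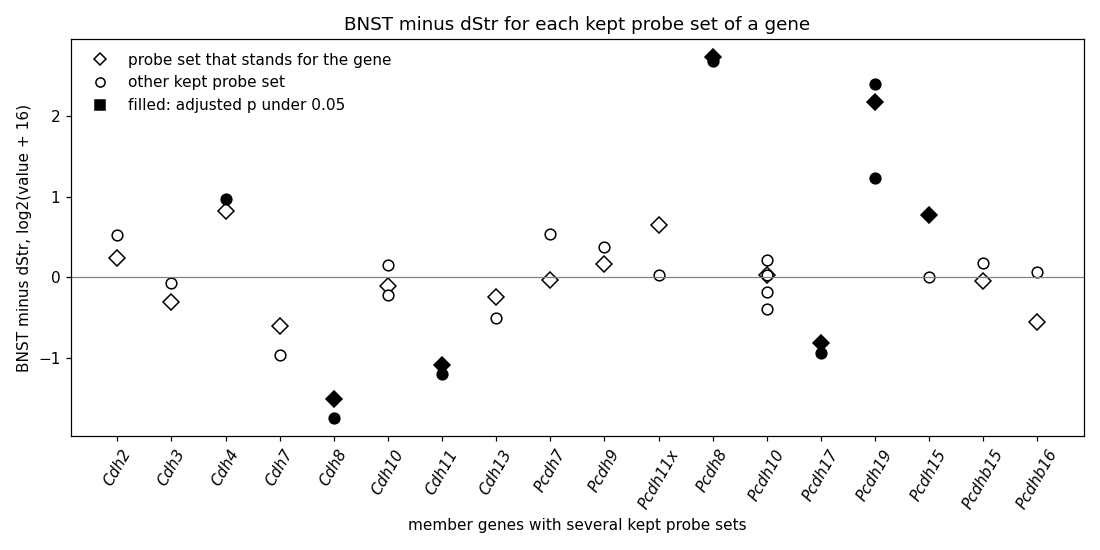
BNST minus dStr on the log2(value + 16) scale for each kept probe set of the 18 members with several. Diamonds are the probe sets that stand for a gene and filled symbols passed over all kept probe sets. Both probe sets of Cdh8, Cdh11, Pcdh8 and Pcdh17 are filled and lie together, while the 2 of Pcdh15 lie at 0.77 and 0.01.

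On chromosome 14, Pcdh8, Pcdh17, Pcdh20 and Pcdh9 follow each other within a few protein-coding genes in GRCm38.p6. Neighbours there did not move together, since Pcdh8 and Pcdh20 were highest in BNST and Pcdh17 in dStr. RefSeq promoter windows were at hand for 18 of the 41 tested members. Those of the 3 chromosome 14 genes with calls are shown with those of Pcdh19 and Cdh8, the other members with the largest steps, to let the genes that were high in BNST be read beside those high in dStr. Each is the 250 bases before the gene's start, 5′ to 3′ on the gene's strand, from RefSeq on GRCm38.p6. Capitals mark CCAAT and TATAAA on either strand, which do not overlap here.
Pcdh8, chr14:79771313-79771562, minus strand: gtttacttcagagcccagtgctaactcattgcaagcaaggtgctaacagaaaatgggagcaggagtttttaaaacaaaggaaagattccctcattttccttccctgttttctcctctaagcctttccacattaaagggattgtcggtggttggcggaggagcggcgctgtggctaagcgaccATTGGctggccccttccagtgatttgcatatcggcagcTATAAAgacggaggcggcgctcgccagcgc
Pcdh20, chr14:88471397-88471646, minus strand: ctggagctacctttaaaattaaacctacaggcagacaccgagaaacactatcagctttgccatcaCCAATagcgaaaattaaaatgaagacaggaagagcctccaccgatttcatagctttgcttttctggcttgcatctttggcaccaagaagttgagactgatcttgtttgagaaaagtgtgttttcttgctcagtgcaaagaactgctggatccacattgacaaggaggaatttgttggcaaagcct
Pcdh19, chrX:133688994-133689243, minus strand: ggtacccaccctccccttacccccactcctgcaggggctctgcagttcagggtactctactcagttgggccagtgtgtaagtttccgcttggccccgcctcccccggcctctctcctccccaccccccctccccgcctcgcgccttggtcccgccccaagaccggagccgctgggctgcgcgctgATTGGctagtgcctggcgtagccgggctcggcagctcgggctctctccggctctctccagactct
Pcdh17, chr14:84443313-84443562, plus strand: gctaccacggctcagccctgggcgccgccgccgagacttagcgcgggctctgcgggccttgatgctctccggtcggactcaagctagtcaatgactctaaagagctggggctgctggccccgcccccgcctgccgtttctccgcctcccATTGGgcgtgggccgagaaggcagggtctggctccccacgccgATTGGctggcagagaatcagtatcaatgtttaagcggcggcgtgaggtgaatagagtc
Cdh8, chr8:99416472-99416721, minus strand: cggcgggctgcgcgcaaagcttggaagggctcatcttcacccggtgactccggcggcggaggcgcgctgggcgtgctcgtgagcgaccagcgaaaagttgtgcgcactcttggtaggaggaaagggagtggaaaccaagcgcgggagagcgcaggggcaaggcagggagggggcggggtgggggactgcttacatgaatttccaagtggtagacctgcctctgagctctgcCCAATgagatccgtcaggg
All 5 windows held CCAAT on 1 of the strands, as did 13 of the 21 windows of tested members and 33.9% of the 32841 RefSeq windows of that length. Its first base lay at -68 in Pcdh8, -65 in Pcdh19, -185 in Pcdh20, -101 and -58 in Pcdh17 and -19 in Cdh8, counted back from the start. Pcdh8 alone of the 5 also held TATAAA, at -30, as 12.4% of windows did. The homeodomain core TAATTA and the cAMP response element TGACGTCA, in 4.84% and 1.55% of windows, were in none of the 5. GC content was 51.2% for Pcdh8, 69.2% for Pcdh19, 42.4% for Pcdh20, 64.8% for Pcdh17 and 64.4% for Cdh8, beside a median of 60.8% over the members' windows and 52.4% over all windows. The genes high in BNST and those high in dStr both held CCAAT, and a match of letters is not a shown binding site.

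Beta protocadherins had mostly low means in BNST, and few passed the test. Of the 14 tested, 2 were lower in BNST than in dStr (Pcdhb17 and Pcdhb20), 1 higher (Pcdhb19), and 1 lower in BNST than in NAc (Pcdhb9). None passed between NAc and dStr. Over all genes 9.33% were lower and 4.94% higher in BNST than in dStr, and 1.48% lower in BNST than in NAc. The differences from these shares were not tested. On the deposited values BNST had the lowest mean for 11 of the 14, where it had it for 46.8% of all genes. This difference was not tested. BNST minus dStr was below 0 for 12 of the 14, for 10 with quantile normalisation and for 9 with median centring. Over all 14208 genes it was below 0 for 8088, 6115 and 7068. BNST minus NAc was below 0 for 11 of the 14 with each of these scalings. The median of the 14 was -0.36 between BNST and NAc and -0.23 between BNST and dStr, beside -0.05 and -0.06 over all genes. With quantile normalisation these medians were -0.32 and -0.17, and with median centring -0.33 and -0.17. Beta genes resemble each other in sequence, so that signal shared between their probe sets cannot be told apart from expression of each.

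Pcdhb20 had the largest difference in the cluster. It read 78.1, 59.4 and 59.6 in BNST, 162, 175 and 98.5 in NAc and 164, 243 and 213 in dStr. BNST was below both other regions on every array. Its mean of 65.7 ± 10.7 in BNST was 2.7-fold below the 206 ± 39.9 of dStr (SD, n = 3 arrays, limma adjusted p = 0.00167). Against NAc, at 145 ± 41, the 1.94-fold difference just missed the threshold (adjusted p = 0.0515). It passed under 6 other settings of the fit, among them quantile normalisation (0.0402), and without BNST 1 (0.0354), without NAc 3 (0.0108) and without BNST 1 and NAc 1 (0.0228).

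Pcdhb17 read 207, 109 and 119 in BNST, 228, 420 and 258 in NAc and 334, 435 and 327 in dStr. BNST was again below the rest, and NAc and dStr overlapped. BNST was 2.43-fold below dStr (145 ± 54.0 against 365 ± 60.6, SD, n = 3 arrays, limma adjusted p = 0.00928). The 1.98-fold difference from NAc did not pass (adjusted p = 0.0943), and passed without BNST 1 (0.0191) and without BNST 1 and NAc 1 (0.00306).

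Pcdhb9 was the beta gene that passed between BNST and NAc. It read 118, 109 and 122 in BNST, 230, 276 and 210 in NAc and 142, 159 and 164 in dStr. The 3 regions did not overlap. BNST, at 116 ± 6.69 (SD, n = 3 arrays), was 1.91-fold below NAc, at 239 ± 33.7 (limma adjusted p = 0.00684; 0.0507 on the arrays of the pair alone). NAc was 1.48-fold above dStr, at 155 ± 11.2, without passing (adjusted p = 0.0654), and passed with quantile normalisation (0.0317), median centring (0.0424) and the mean of kept probe sets (0.0467). BNST minus dStr was -0.37 (adjusted p = 0.101).

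Pcdhb19 lies directly before Pcdhb20 and went the other way. It read 106, 150 and 101 in BNST, 51, 111 and 70.4 in NAc and 67.5, 25.1 and 60.6 in dStr. BNST was above dStr on every array and overlapped with NAc. BNST was 2.08-fold above dStr (119 ± 26.9 against 51.1 ± 22.8, SD, n = 3 arrays, limma adjusted p = 0.0409). The call ended without BNST 2 (0.148), BNST 3 (0.0851), NAc 3 (0.0512), dStr 2 (0.12) or dStr 3 (0.0682), and with no filter (0.0678). The F test over the 3 regions did not call Pcdhb19 (adjusted p = 0.111).

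The other beta genes did not pass in any comparison. Pcdhb7 read 76.8, 51.2 and 55.8 in BNST and 115, 114 and 100 in dStr, without overlap (limma adjusted p = 0.0602). Pcdhb16 read 187, 170 and 168 in BNST, 326, 283 and 213 in NAc and 224, 293 and 285 in dStr, with BNST below both (adjusted p = 0.124 against NAc and 0.0522 against dStr), but its second kept probe set differed by -0.08 and 0.07. Pcdhb13 was high on BNST 2, BNST 3 and NAc 1, at 380, 394 and 321, where the other 6 arrays lay between 162 and 197. With 9 arrays it differed by 0.76 between BNST and dStr and by 0.41 between BNST and NAc (adjusted p = 0.106 and 0.65). Without BNST 1 and NAc 1, Pcdhb7 (-0.86, adjusted p = 0.0118), Pcdhb13 (1.09, 0.000168) and Pcdhb16 (-0.61, 0.0192) passed between BNST and dStr, and Pcdhb13 between BNST and NAc (0.99, 0.00199). For Pcdhb13 the arrays left out were the lowest of BNST, at 185, and the highest of NAc, at 321, so their removal favoured these passes. Pcdhb7 and Pcdhb16 also passed between BNST and dStr on the arrays of the pair alone (0.0126 and 0.026). Pcdhb10, Pcdhb11 and Pcdhb15 had differences between -0.31 and 0.26. Pcdhb3, Pcdhb5, Pcdhb12 and Pcdhb21 lay between -0.52 and 0.35. The gamma gene Pcdhgc4 read 137, 72.2 and 58.3 in BNST, 68.7, 68.5 and 97.5 in NAc and 87.0, 44.4 and 50.2 in dStr, with all regions overlapping.

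**Figure D4:**
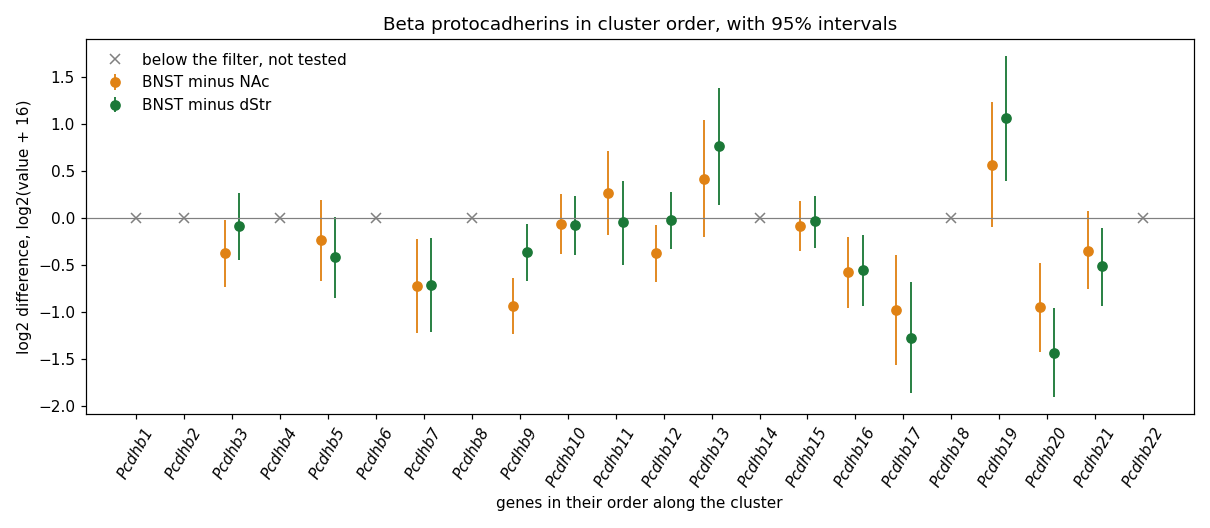
Log2 differences of the beta protocadherins of BNST from NAc and from dStr, with 95% intervals, in the order of the genes along their cluster in GRCm38.p6. Crosses are the 8 genes below the filter. Most points lie below 0, Pcdhb20 lowest at -1.44 against dStr, and the neighbour Pcdhb19 highest at 1.06.

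Partners of these molecules were read from 5 lists. Their counts between BNST and dStr stand beside 4.94% of all genes that were higher in BNST and 9.33% that were lower. Over the 5 lists 6 genes were higher and 8 lower, which became 8 and 6 with quantile normalisation, 7 and 8 with median centring. Of 16 catenins and their binding partners, Ctnnd2 (delta-catenin) was lower in BNST than in dStr (597 ± 162 against 948 ± 143, SD, n = 3 arrays, 1.6-fold, limma adjusted p = 0.0381). Ctnna1, an alpha-catenin, was lower in NAc than in dStr (609 ± 93.0 against 978 ± 45.7, adjusted p = 0.0328). None passed between BNST and NAc. Catenin medians were -0.06, 0.04 and 0.01 in the comparisons of BNST with NAc, BNST with dStr and NAc with dStr.

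Of 15 tested genes of the wider cadherin superfamily, 3 were higher in BNST than in dStr. These were Fat1, a giant cadherin (2.27-fold, limma adjusted p = 0.0038), Cdhr4 (2.2-fold, 0.000582) and Ret, a receptor tyrosine kinase with cadherin-like repeats (1.66-fold, 0.0106). Fat1 was also 2.83-fold higher in NAc than in dStr (945 ± 289 against 316 ± 48.1, SD, n = 3 arrays, adjusted p = 0.00447). Clstn2, a calsyntenin, was lowest in NAc, at 130 ± 21.2 against 219 ± 1.2 in BNST (adjusted p = 0.0303) and 236 ± 16 in dStr (adjusted p = 0.015). Cdhr4 was also higher in BNST than in NAc (2.15-fold, adjusted p = 0.00362).

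Signalling partners of protocadherins were lower in BNST than in dStr for 5 of 18 tested genes and higher for Ret alone. Ppp1ca, a catalytic subunit of protein phosphatase 1, averaged 1111 ± 206 in BNST and 2657 ± 213 in dStr (SD, n = 3 arrays, 2.39-fold, limma adjusted p = 0.00313). Dab1, a Reelin adaptor, was 2.14-fold lower (adjusted p = 0.00693), and Wasf1, of the WAVE complex, 1.91-fold lower (adjusted p = 0.0347). The others were Ptk2b and Abi1. The median of this list was -0.46, beside -0.06 over all genes, and none of it passed in the remaining comparisons.

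Of 17 tested factors that act at clustered protocadherin promoters or on their chromatin, the DNA methyltransferase gene Dnmt3a passed, and it was lower in BNST than in dStr (485 ± 57.4 against 862 ± 80.9, SD, n = 3 arrays, 1.76-fold, limma adjusted p = 0.00928). Ctcf and the cohesin genes did not pass in any comparison. Among 12 genes of cadherin cleavage and trafficking, Magi1 (1.89-fold), Snap47 (1.59-fold) and Ncstn (1.37-fold) were higher and Shroom2 (1.65-fold) lower in BNST than in dStr. None of the 12 passed elsewhere.

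Cell type markers moved with region as well. The summed intensity of 10 medium spiny neuron markers was 3788 to 8582 on the BNST arrays, 15824 to 22200 on the NAc arrays and 27740 to 30869 on the dStr arrays, with NAc 1 the highest NAc array. Of 7 tested ependymal markers 6 were higher in BNST than in dStr and than in NAc, and the sum over 8 was 1653 to 3775 in BNST, 419 to 506 in NAc and 399 to 427 in dStr. Of 10 astrocyte markers 4 were higher in BNST than in dStr, with sums of 12553 to 14429, 10082 to 10646 and 9267 to 9670. Of 7 tested microglial markers 5 were lower in BNST than in dStr, with sums over 8 of 2625 to 3338, 3456 to 4081 and 4510 to 4614. Septal and hypothalamic markers, 2 of 9 tested higher in BNST than in either other region, summed to 3823 to 4532 in BNST, 1830 to 2446 in NAc and 2114 to 2241 in dStr. Thalamic and habenular markers, 2 of 7 tested higher in BNST than in either, had sums that overlapped (2813 to 3433, 2526 to 3269 and 2700 to 3596). Prkcd is on both the BNST and the thalamic list and Zic1 on both the BNST and the septal list, so these lists are not separate readings. Of 7 pericyte markers 2 were lower in BNST than in dStr (1693 to 1785 against 2229 to 2405), of 5 tested choroid plexus markers 1 was higher than in either region, and of 3 tested cortical markers 1 was lower than in dStr. Fibroblast markers, of which 0 of 7 passed in each comparison, summed to 2584 to 3296, 1624 to 4031 and 2106 to 2695. No marker of these lists stood at the floor on all 9 arrays. The part of such differences in the results for cadherins and protocadherins was not tested.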

How the data were processed

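RNA of 9 tissue punches, 3 each from BNST, NAc and dStr, was read on Affymetrix Mouse430_2 arrays. The values deposited by the authors are linear probe-set intensities, in 1 table of 45037 probe sets. The sources used here do not give the summarisation software or the scaling, and every array has the same lowest value of 15. A gene symbol came from the platform annotation, which names 34945 probe sets with 1 symbol, 932 with several and 9160 with none. Entrez identifiers matched 34741 of them to RefSeq and changed 0.

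Filtering kept 29293 probe sets, those that exceeded an array's 40th percentile on at least 3 arrays. The kept probe set with the highest mean stood for a gene, which gave 14208 genes. log2(value + 16) was fitted with limma 3.58.1 in R 4.3.3 by region means over 9 arrays (6 residual degrees of freedom), with 2-sided moderated tests, Benjamini-Hochberg adjustment over all genes and a threshold of 0.05. Beside it, all kept probe sets were tested singly. The number of arrays limits the precision. The procedure was tested on simulated data.

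Every member that passed in any comparison is described, with up to 3 passing genes per list of partners. Other genes were named after their values were seen. Members, lists and tests were chosen with earlier results of these data known.

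Alternatives were quantile normalisation, median centring, a stricter filter (60th percentile), no filter, the mean of kept probe sets, single probe sets, pseudocounts of 1 and 64, a trend and robust prior, a replicate block, leaving out arrays, and the arrays of a pair alone.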

Additional observations from a re-analysis of the deposited data

How the results depend on the processing

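The count of members called by the F test ranged from 6 to 13 when 1 array was left out, and was 19 without BNST 1 and NAc 1. Between BNST and dStr the range was 7 to 15. Between NAc and dStr it was 0 to 5, with 9 without BNST 1 and NAc 1, 2 with no filter, 2 with the replicate block and 3 on the arrays of the pair alone. Between BNST and NAc it was 1 to 6, with 7 without BNST 1 and NAc 1 and 1 on the pair alone. The causes were not tested. Between BNST and NAc both other scalings gave 1 member higher and 2 lower, where the main values were 1 and 1. For all genes between BNST and dStr, quantile normalisation moved the split from 702 higher and 1325 lower to 1265 and 1166, and the median by 0.116 on the log2 scale.

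Samples that share a replicate number did not deviate together (correlations from -0.514 to 0.261 across genes), so the numbers were not taken to pair them. The replicate block kept 10 of the 12 calls between BNST and dStr and both between BNST and NAc. The calls it ended were those of Cdh16 (adjusted p = 0.0928) and Pcdhb19 (0.0923) between BNST and dStr and of Cdh9 (0.117), Pcdh15 (0.0608) and Pcdh19 (0.108) between NAc and dStr.

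The calls between BNST and dStr for Cdh8, Cdh11, Pcdh8, Pcdh19, Pcdh20, Pcdhb17 and Pcdhb20 held under all 21 alternatives. Cdh16, Pcdh15 and Pcdhb19 had 20 alternatives, since the stricter filter removed them. Some differences between BNST and NAc that had not passed changed sign. Most of these were small, and that of Pcdh19, on the probe set that stands for it, was larger. Cdh9 (-0.01) became 0.03 with quantile normalisation, 0.02 with median centring and 0.01 to 0.07 without BNST 2, BNST 3, NAc 1 or NAc 2, in a range of -0.13 to 0.07 over single arrays left out. Pcdh15 (-0.10) became 0.13 with the mean of its probe sets and 0.06 without NAc 2 (range -0.27 to 0.06 over single arrays left out), Pcdh17 (-0.19) became 0.01 with quantile normalisation, and Pcdh19 (0.54) became -0.15 without BNST 1 and NAc 1.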

Other observations

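Some probe sets below the filter were never tested and are given as values, chosen after their values were seen. A second probe set of Pcdhb21 read 17.2, 18.8 and 15 in BNST, 30.8, 58.7 and 41.8 in NAc and 40.1, 57.7 and 59.4 in dStr, so that the BNST arrays were lowest, with 1 at the floor. The endothelial cadherin gene Cdh5 had 2 dim probe sets, one of which was highest in dStr (74.5, 72.2 and 73.3) and the other lowest there (23, 36.2 and 32.6).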
